A study of Mus musculus with 6 samples.

Results

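The genes described here are 9 genes of the Notch pathway in cultured squamous cell carcinoma cells (SCCc). They comprise the receptors Notch1, Notch2 and Notch3, the ligands Jag1, Jag2 and Dll1, the DNA-binding factor Rbpj, the coactivator Maml1 and the target gene Hes1. They were taken by name from tables of 23698 genes, in which each of the 9 has a row of its own, and all 9 were among the 9862 genes that passed the filters on low values. SCCc are mouse keratinocytes of the genotype HrasG12V; Tgfbr2 fl/fl KO, originally from newborn (P0) back skin and kept in low-calcium medium as an established line from an earlier allograft model. They were used at passages 10 to 15 for 1 ribosome profiling library and 2 RNA-seq libraries. Ribosome profiling reads out the pieces of mRNA covered by ribosomes, called footprints, while RNA-seq measures how much of each mRNA is there. Exon counts totalled 3549555 for ribosome profiling, 10707930 for RNA-seq replicate 1 and 14003713 for RNA-seq replicate 2. Nothing in the labels says whether the RNA-seq replicates were separate cultures, so their spread may be technical. No wild-type library was analysed here, and every comparison below is between genes of the same cells.

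Notch receptors are transmembrane proteins that bind Jagged and Delta-like ligands on a neighbouring cell. Ligand binding exposes the receptor to ADAM proteases and then to the gamma-secretase complex, which frees its intracellular domain to enter the nucleus, join RBPJ and a Mastermind-like coactivator, and switch on genes of the Hes and Hey families. In skin, Notch signalling is known for promoting the step from basal to spinous keratinocytes and for acting as a tumour suppressor in mouse epidermis.

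Initiation of translation is known to depend in part on the bases around the start codon, which is why these are shown for the 9 genes. They come from GENCODE M21 transcripts on GRCm38, the build to which the reads were aligned, and are given 5′ to 3′ on the strand of the gene. Each run holds 12 bases before the ATG, the ATG and 12 bases after it, and capitals mark the third base before the ATG, the ATG and the base that follows it.

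Notch1: tggcgagcaGgcATGCcacggctcctg
Notch2: gcggccccgAagATGCccgctctgcgt
Notch3: tggccggccGccATGGggctgggggcc
Jag1: cgcggcgcaGcgATGCggtccccacgg
Jag2: gtcgaggcgGcgATGCgggcacgcggc
Dll1: tccagcggtAccATGGgccgtcggagc
Rbpj: agtttgtggAagATGGcgcctgttgtg
Maml1: cgcccgcggCccATGGtgctacccacc
Hes1: aaaaaaacgAaaATGCcagctgatata

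The third base before the ATG was a purine, the base that favours initiation there, in 8 of the 9 genes, and Maml1 with a C was the exception. Among 9375 passing genes with a principal transcript, 86.1% had a purine at that place. The base after the ATG was a G in 4 of the 9, namely Notch3, Dll1, Rbpj and Maml1, against 54.4% of those genes. Both features were present in 3 of the 9, Notch3, Dll1 and Rbpj, against 46.9%. An ATG upstream of the start codon was annotated in the 5′UTR of 6 of the 9 genes, against 48.4%, and Notch1, Notch3 and Jag2 had none. The annotated 5′UTR of Jag2 was 86.6% G and C and that of Hes1 37.5%, and the median of the passing genes was 65.6%. The other 7 lay between 57.4% for Jag1 and 77.6% for Maml1.

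On GRCm38, Notch1 lies at chr2:26457903-26516663 on the minus strand, Notch2 at chr3:98013527-98150361 on the plus strand and Notch3 at chr17:32120820-32166852 on the minus strand. Of the ligand genes, Jag1 lies at chr2:137081456-137116644, Jag2 at chr12:112907819-112929776 and Dll1 at chr17:15367354-15376872, each on the minus strand. Rbpj lies at chr5:53466152-53657362 on the plus strand, Maml1 at chr11:50255634-50292311 on the minus strand and Hes1 at chr16:30064384-30067796 on the plus strand. The counts covered 99.4% or more of the annotated coding sequence (CDS) of 8 of these genes. For Rbpj they covered 357 nt, or 20.6% of an annotated CDS of 1736 nt, so its footprint values rest on a small part of the gene.

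The cells carried the marks of keratinocytes. All 9 keratinocyte markers passed the filters, led by the basal keratin Krt5 at 7965 and 9483 RPKM (reads scaled to counted length and library total) in RNA-seq replicates 1 and 2. Of the spinous and granular markers, Sbsn was the most abundant at 146 and 163 RPKM, whereas Lor, a protein of the cornified layer, had 2 counts in each replicate. None of the 8 fibroblast markers and none of the 5 endothelial markers passed the filters, which also ask for footprints. By RNA alone, 4 of the 8 fibroblast markers stood at 1 RPKM or more in both replicates, as described below, and none of the endothelial markers did. Of the leukocyte markers only Cd68 passed, which also occurs outside leukocytes, and Cd3e and Cd207 had no count. Of the melanocyte markers only Pmel passed, at 5.03 and 5.19 RPKM. Krt20, a keratin of Merkel cells and of some other epithelia, stood at 267 and 233 RPKM, while of the Merkel cell transcription factors Isl1 passed at 3.91 and 4.72 RPKM and Atoh1 had no count. The simple epithelial keratin Krt8 had 1.77 and 2.07 RPKM of RNA and 56.5 RPKM of footprints, a log2 translational efficiency (defined below) of 4.54. Krt18, its partner, had 4.04 and 4.37 RPKM of RNA, 67.5 RPKM of footprints and a value of 3.66. Tgfbr2, the targeted gene, had 3150 and 3958 RNA-seq counts and 193 footprints, but counts over a whole gene do not show the loss of a floxed exon and check nothing here.

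The receptor genes spanned a wide range, with Notch1 far above Notch2 and Notch3 in RNA and in footprints. Notch1, the main receptor of epidermal keratinocytes, stood at 71.3 RPKM in RNA-seq replicate 1 and 77.9 RPKM in replicate 2, from 7249 and 10354 counts. Its footprints on the CDS numbered 1034, or 38.4 RPKM (95% Poisson interval 36.1 to 40.8). Notch1 RNA was thus higher than that of 90.0% of passing genes, while its footprint density ranked at 66.9%. Such intervals cover counting error only, since PCR copies of a fragment are not independent molecules.

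Notch2, a receptor with the same domain plan, had 8.14 and 8.98 RPKM of RNA and 12.3 RPKM of footprints (11.0 to 13.7). Notch3, best known from vascular smooth muscle but also present in epidermis, had 2.22 and 3.24 RPKM of RNA and 1.66 RPKM of footprints (1.19 to 2.25) from 41.0 footprints. It was the lowest of the 9 genes by RNA on exons and by footprints.

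As a share of the summed RPKM of the 3 receptor genes, Notch1 made up 87.3% and 86.4% of RNA in replicates 1 and 2, and 73.3% of footprints. Notch2 made up 9.97% of RNA in each replicate and 23.5% of footprints. The share of Notch3 was 2.72% and 3.59% of RNA and 3.17% of footprints. Notch1 exceeded Notch2 by 8.76-fold and 8.67-fold in RNA and by 3.12-fold in footprints. The receptor pool as read by ribosomes was therefore less dominated by Notch1 than the RNA pool.

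Among the ligand genes Jag2 led by RNA, while Jag1 led by footprint density on the CDS but not by footprint density over exons. Jag2, which encodes a Jagged ligand, had the most RNA of the 9 genes, at 101 and 118 RPKM. Its footprints numbered 613, or 46.1 RPKM (42.6 to 50.0). Jag1, the other Jagged ligand, had 40.2 and 41.7 RPKM of RNA but 748 footprints, or 57.7 RPKM (53.6 to 62.0).

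Jag2 RNA was 2.51-fold and 2.84-fold that of Jag1 in the replicates, and its footprint density on the CDS was 0.80 of that of Jag1, with Poisson intervals that do not overlap. Over exons this ratio was 1.05, at 42.8 RPKM for Jag2 (39.4 to 46.3) and 40.9 RPKM for Jag1 (38.1 to 43.8), with intervals that overlap. The direction of the density thus turns with the counted region. By count Jag1 had more footprints over exons too, 797 against 615, on 5493 and 4054 counted nt. The counted 3′UTR of Jag1, 1576 nt, held 7.97 footprints, and that of Jag2, 302 nt, held 2.48. Dll1, a Delta-like ligand, had 11.9 and 12.7 RPKM of RNA and 14.8 RPKM of footprints (12.2 to 17.8). Jag2 made up 66.0% and 68.5% of the summed ligand RNA and 38.9% of the summed ligand footprint density on the CDS, or 45.4% over exons. Jag1 made up 26.3% and 24.1% of the RNA and 48.6% of the footprint density on the CDS, or 43.4% over exons.

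Of the nuclear components, Rbpj, the factor that binds DNA and recruits either coactivators or corepressors, had little RNA, at 5.75 and 4.95 RPKM. Its footprint density was 49.4 RPKM (38.2 to 63.6), from 62.6 footprints on the 357 nt counted. On those same 357 nt the RNA-seq replicates held about 12 counts each, so the Rbpj values carry a large counting error. GENCODE M21 also annotates the processed pseudogenes Rbpj-ps1 at chr4:49350522-49351527 and Rbpj-ps3 at chr6:46529354-46530794. How reads shared with such copies were assigned is not given in the sources used here, so the level of Rbpj is uncertain.

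Maml1, a scaffold that brings histone acetyltransferases to the Notch complex, showed the reverse. Its RNA stood at 18.9 and 19.6 RPKM, above Dll1 and Notch2, while its footprints numbered 68.6, or 6.31 RPKM (4.94 to 8.04). Hes1, a transcriptional repressor and direct Notch target, had 49.5 and 47.1 RPKM of RNA. Its 119 footprints on the CDS gave 39.6 RPKM (32.8 to 47.4).

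**Figure D1:**
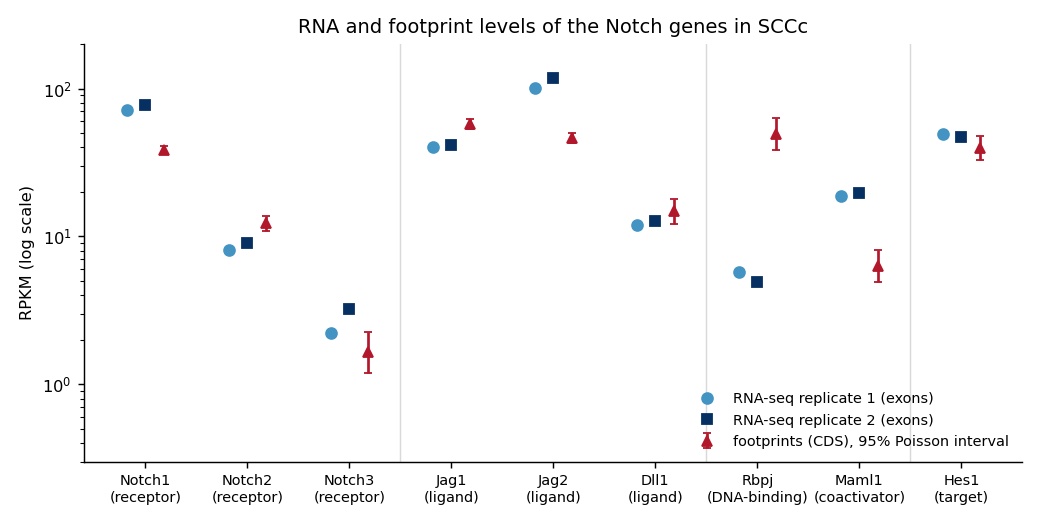
RPKM on a log scale for each of the 9 genes, with RNA-seq replicates 1 and 2 on exons as blue points and footprints on the CDS as red triangles with 95% Poisson intervals. Footprints lie farthest below RNA for Maml1, Jag2 and Notch1 and farthest above RNA for Rbpj.

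Ordered by RNA, the genes ran from Jag2 through Notch1, Hes1, Jag1, Maml1, Dll1, Notch2 and Rbpj to Notch3. In each of the 8 neighbouring pairs of this order the ranges over the replicates did not overlap. With RNA-seq over the CDS, 6 of 8 pairs were apart. Hes1, at 44.6 and 51.6 RPKM, then overlapped Jag1 at 41.9 and 45.5 RPKM. Rbpj also overlapped Notch3 there and had the lower mean, 2.78 RPKM against 2.82 RPKM. Ordered by footprint density on the CDS, the genes ran from Jag1 through Rbpj, Jag2, Hes1, Notch1, Dll1, Notch2 and Maml1 to Notch3. Neighbours were apart beyond their Poisson intervals in 3 of 8 pairs, namely Notch1 over Dll1, Notch2 over Maml1 and Maml1 over Notch3. The first 5 genes of that order were not told apart step by step. The median RNA level of the 9 genes was 19.2 RPKM, against 15.3 RPKM over all passing genes, and their median footprint density on the CDS was 38.4 RPKM against 19.1 RPKM. That difference depends on the region, since over exons the medians were 10.5 RPKM and 10.6 RPKM, and Rbpj fell to 7.78 RPKM.

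Translational efficiency compares these scales gene by gene. The footprint RPKM of the CDS was divided by the mean RNA-seq RPKM of the exons, and the log2 of this ratio was set to 0 at the median of the 9862 passing genes. A value of 1 is 2-fold above that median. With 1 ribosome profiling library no test across replicates was run. Each value is given with its SD over the RNA-seq replicates (n = 2) and an exact 95% Clopper-Pearson counting interval.

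Translational efficiency was below the median of all genes for 6 of the 9 Notch genes and above it for Rbpj, Notch2 and Jag1. By definition the median splits all passing genes evenly, and the interval of Dll1, counted as below, spans it. Values past 2-fold below the median were seen for 4 of 9, namely Maml1, Jag2, Notch1 and Notch3, against 21.1% of all passing genes. The interval of Notch3 spans the limit of −1. A value past 2-fold above it was seen for 1 of 9, Rbpj, against 20.7% of all passing genes. The median of the 9 genes was −0.63. The SD of log2 translational efficiency over all passing genes was 1.45, and over the 9 genes 1.44. Without Rbpj, whose value rests on a small part of its CDS, the SD over the other 8 was 0.82.

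**Figure D2:**
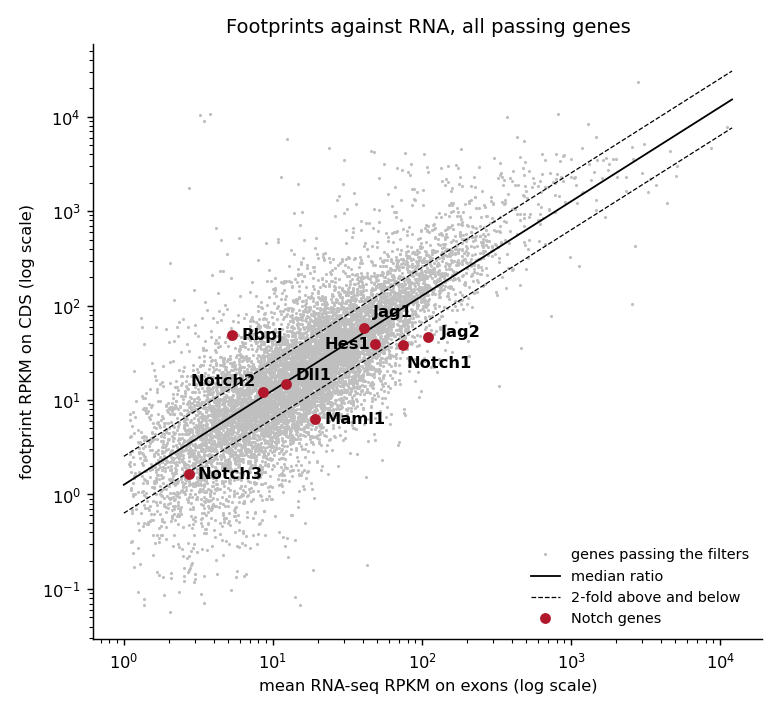
Footprint RPKM on the CDS against mean RNA-seq RPKM on exons, both on log scales, with each of the 9862 passing genes as a grey dot and the Notch genes in red. The solid line is the median ratio and the dashed lines lie 2-fold above and below it, with Rbpj above the upper line and Maml1, Jag2, Notch1 and, narrowly, Notch3 below the lower line.

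For the receptors, log2 translational efficiency was −1.30 ± 0.10 for Notch1 (−1.39 to −1.21). It was 0.18 ± 0.11 for Notch2 (0.0054 to 0.35). It was −1.06 ± 0.39 for Notch3 (−1.55 to −0.60). Notch1 and Notch2 therefore differed by 1.48 on the log2 scale, or 2.79-fold, with intervals and replicate ranges that do not overlap, whereas Notch1 and Notch3 could not be told apart. These are long coding sequences of 7593, 7419 and 6954 nt. The 422 passing genes with at least 5000 nt of counted CDS had a median log2 translational efficiency of −0.93, and Notch2 lay above it and Notch1 below it. The interval of Notch3 spans it.

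Among the ligands, Jag2 had −1.59 ± 0.17 (−1.71 to −1.47), a footprint density 3.01-fold below that of a gene at the median with the same RNA. Jag1 had 0.15 ± 0.05 (0.040 to 0.26). Dll1 had −0.07 ± 0.08 (−0.36 to 0.21). Jag1 thus stood 1.74 above Jag2 on the log2 scale, or 3.35-fold, at coding sequences of nearly equal length, 3654 and 3741 nt. Jag1 and Dll1 were not told apart. Passing genes with a counted CDS from 2000 nt to under 5000 nt, a class that also holds Dll1 with 2166 nt, numbered 2499 and had a median of −0.50.

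Rbpj had the highest value of the 9, 2.86 ± 0.14 (2.45 to 3.26), a rank of 97.4% among passing genes. With RNA-seq counted over the CDS in place of exons it was 4.10, and with counts not divided by length it was 1.07, so its size depends on the length used for a gene of which little was counted. Maml1 had the lowest value, −1.95 ± 0.05 (−2.31 to −1.60), 3.86-fold below the median and at a rank of 7.54%. Hes1 had −0.63 ± 0.04 (−0.91 to −0.36), a rank of 29.7%.

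Ordered by translational efficiency, the genes ran from Rbpj through Notch2, Jag1, Dll1, Hes1, Notch3, Notch1 and Jag2 to Maml1. Only 2 of the 8 neighbouring pairs were apart on both their counting intervals and their replicate ranges, Rbpj over Notch2 and Notch1 over Jag2. The pair of Notch1 and Jag2 was apart narrowly, since the lowest value of Notch1 was −1.39 and the highest of Jag2 was −1.47. Notch2, Jag1 and Dll1 lay near the median, and Notch3, Notch1, Jag2 and Maml1 below −1. Hes1 lay between them and was told apart from neither Dll1 nor Notch3, so no break divided the order there.

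These counts depend on the division by length, on the filter and, for Notch3, also on the RNA-seq region and the pseudocount. Below −1 lay 3 of the 9 genes with RNA-seq over the CDS and 3 with a pseudocount of 1 RPKM. Notch3 then stood at −0.81 and −0.80. With counts not divided by length, 1 gene, Maml1, lay below −1 in place of 4, while Notch1 had −0.61, Jag2 −0.69 and Notch3 −0.24. With a minimum of 100 counts per library, 6 of the 9 genes were left and none of them lay above the median, since Notch2 moved to −0.22 and Jag1 to −0.24. Hes1 moved to −1.02, past 2-fold below the median. The order of Jag1 over Jag2 and of Notch2 over Notch1 was kept in each of 5 alternatives, namely either replicate left out, RNA-seq over the CDS, a pseudocount of 1 RPKM and no division by length. The other alternatives move all genes nearly alike and say little about an order.

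**Figure D3:**
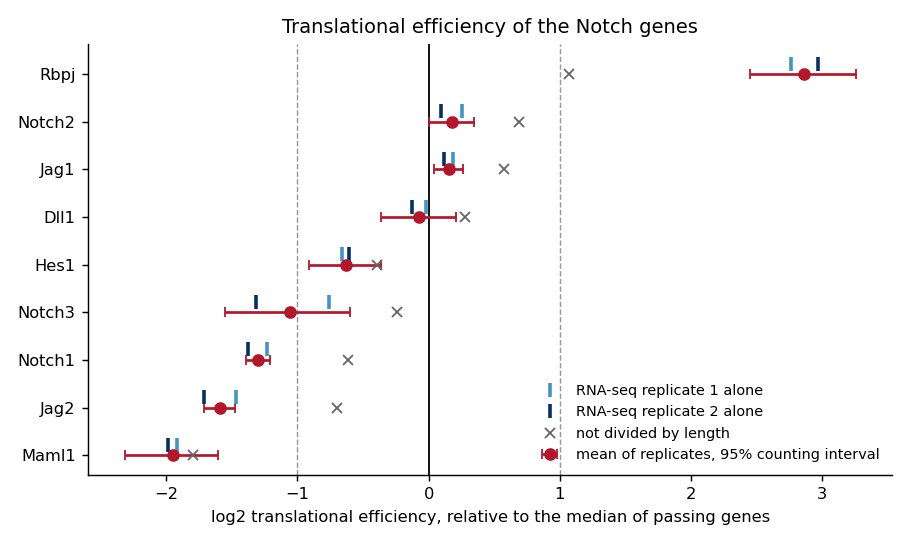
Log2 translational efficiency of the 9 genes relative to the median of passing genes, with 95% counting intervals in red, the value from each RNA-seq replicate alone as blue ticks and the value without division by length as crosses. Dashed lines mark 2-fold, and Maml1, Jag2, Notch1 and Notch3 lie below the lower one.

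RNA was higher in replicate 2 for 7 of the 9 genes, Rbpj and Hes1 being the others. Over the CDS it was higher for 8 of 9, since the log2 difference of Hes1 turned from −0.07 to 0.21. The log2 of replicate 2 over replicate 1 had a median of 0.09 over the 9 genes and −0.01 over all passing genes, whose SD was 0.20. Notch3 showed the largest difference, 0.54 (0.28 to 0.80), at a rank of 98.7% by size among passing genes. Jag2 followed with 0.23 (0.17 to 0.28) and Rbpj had −0.22 (−0.54 to 0.10). These intervals cover counting error only. Over passing genes the replicates differed by more than that error, with a chi-square of 7.52 per degree of freedom.

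Low-level RNA of stromal genes also differed between the replicates. The 8 fibroblast markers summed to 10.3 RPKM in replicate 1 and 16.0 RPKM in replicate 2, and 6 of the 8 were higher in replicate 2. Col3a1, a fibrillar collagen and the most abundant of them, stood at 3.89 and 5.49 RPKM, and Col1a1 at 2.02 and 4.19 RPKM. None of the 8 was at 0 in RNA, and the lowest, Pdgfrb, had 3 counts in each replicate. Of the 8, 7 had no footprint on the CDS, and for Col3a1 this allows up to 3 counts, or 0.19 RPKM. The 10.0 footprints on the list were on Pdgfra. The 5 endothelial markers summed to 0.62 and 0.70 RPKM. Fewer cells of a type and less RNA per cell cannot be told apart in bulk libraries, and the part of such cells in the Notch3 values was not tested. With replicate 1 alone the log2 translational efficiency of Notch3 was −0.76, and with replicate 2 alone −1.32. It was −0.81 with RNA-seq over the CDS and −0.80 with a pseudocount of 1 RPKM. The place of Notch3 past 2-fold thus depends on replicate 2 and on these settings.

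Footprints lay mainly on coding sequence in all 9 genes, with the lowest share in Hes1. The share of exon footprints on the CDS was 96.8% for Notch1, 97.4% for Notch2, 100% for Notch3, 93.9% for Jag1 and 99.5% for Jag2, against a median of 93.4% over passing genes. It was below that median for Maml1 at 92.7%, Rbpj at 90.8% and Dll1 at 88.8%. For Hes1 it was 67.1%, and 30.8% of its footprints lay on the 5′UTR, against a median of 3.61%. Footprint density on 3′UTRs, as a share of that on the CDS, ran from 0% for Notch3 to 7.37% for Notch1.

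Hes1 carried 54.6 footprints on 234 nt of counted 5′UTR, or 65.8 RPKM, above the 39.6 RPKM of its CDS. The log2 of 5′UTR over CDS footprint density was 0.73 (0.24 to 1.20), a rank of 88.7% among the 1092 passing genes whose counted 5′UTR had 60 nt or more and 30 footprints or more. Their median was −0.99. These genes were kept by their 5′UTR footprints, the quantity being ranked, so the rank and median do not stand for all passing genes. RNA on the Hes1 5′UTR was near that on its CDS, with log2 ratios of 0.34 and −0.03 in the replicates. The medians over passing genes were −1.74 and −1.48, so Hes1 stood high in RNA on the 5′UTR as well.

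Jag1 was the other gene within these limits, with 40.9 footprints on 263 nt of 5′UTR, or 43.8 RPKM, against 57.7 RPKM on the CDS. Its log2 ratio was −0.40 (−0.89 to 0.06), so a difference between 5′UTR and CDS density was not detectable at this depth. The 5′UTR thus had the higher footprint density in 1 of 2 genes, against 24.8% of the genes within the limits. Both shares are of genes selected for 5′UTR footprints, so they say nothing about the Notch genes as a set. RNA on the Jag1 5′UTR was low, at 3.45 and 5.82 RPKM, with log2 ratios to the CDS of −3.60 and −2.97. The medians over passing genes were −1.74 and −1.48.

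Notch1 and Dll1 had fewer 5′UTR footprints, 18.2 on 264 nt and 13.6 on 583 nt. Their log2 ratios to the CDS were −0.98 (−1.74 to −0.31) for Notch1 and −1.17 (−2.09 to −0.37) for Dll1, so footprint density on the 5′UTR was below that on the CDS. Notch1 RNA on the 5′UTR was 1.53 and 4.42 RPKM against 74.2 and 83.1 RPKM on the CDS. Its RNA log2 ratios were −5.60 and −4.23, from only 4.34 and 16.4 counts on the 5′UTR. Relative to the CDS, footprints on the 5′UTR thus stood above RNA for Notch1, as they did for Jag1. For Hes1 the RNA ratios lay closer to the footprint ratio. Dll1 RNA on the 5′UTR, at 10.2 and 9.44 RPKM, was closer to the 12.8 and 14.6 RPKM on its CDS. The other 5 genes had at most 4.41 footprints on the 5′UTR, and for Jag2 the counted 5′UTR was 11 nt long.

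**Figure D4:**
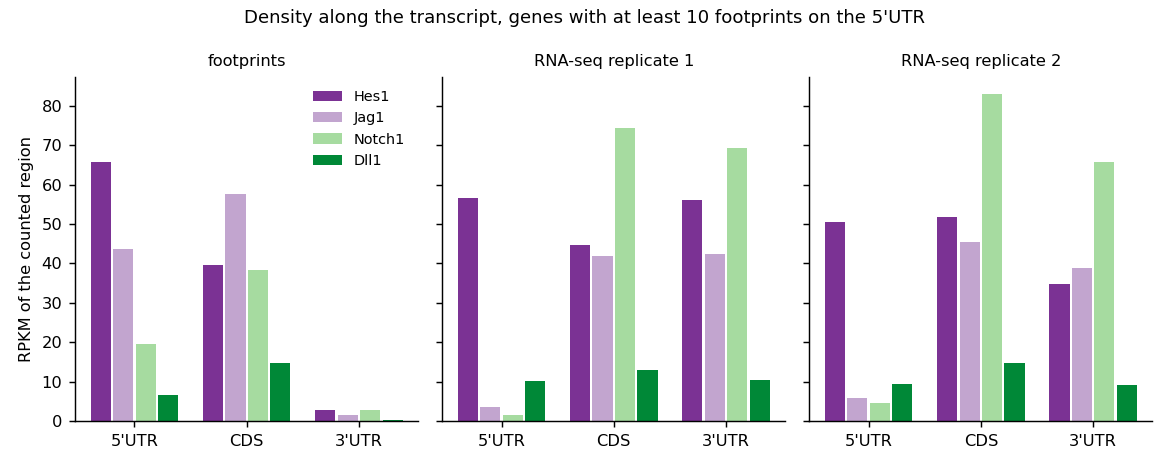
RPKM on the counted 5′UTR, CDS and 3′UTR of Hes1, Jag1, Notch1 and Dll1, with a panel each for footprints and for RNA-seq replicates 1 and 2. Footprints nearly vanish on the 3′UTR while RNA does not, and Hes1 has its highest footprint density, 65.8 RPKM, on the 5′UTR.

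The wider pathway was read from 8 lists with 71 genes, of which 52 passed the filters. Translational efficiency lay past 2-fold below the median for 19 of the 52, or 36.5%, beside the 21.1% of all passing genes given above. It lay past 2-fold above for 4 of the 52, or 7.69%, beside 20.7%. The median of the 52 was −0.53. They were not matched to all genes by CDS length. Passing genes with 2000 nt to under 5000 nt had a median of −0.50 and those with at least 5000 nt −0.93. What part length has in these shares was not tested. Without division by length, 25 of the 52 lay below −1, beside 21.1% of passing genes, and 3 above 1, beside 19.2%.

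Of the 6 other receptor and ligand genes only Dlk2, a membrane protein related to Delta, passed the filters, at 14.4 and 17.7 RPKM of RNA and −0.32. Notch4, a receptor best known from endothelium, had 10.0 and 33.9 counts, 0.14 and 0.37 RPKM. Dll4 had 2 counts in replicate 1 and none in replicate 2, and Dlk1 had none in either.

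All 10 genes for proteases that process the receptor passed, with a median of 0.18. Psenen, a small subunit of gamma-secretase, was highest at 2.14, and Furin, which cleaves the receptor on its way to the surface, was lowest at −1.41. Adam10, the protease of the extracellular cleavage, had the most RNA at 65.2 and 60.1 RPKM, and a value of −0.38. Aph1a, another gamma-secretase subunit, lay at 1.15 (0.13 to 2.01) with 15.1% of its annotated CDS counted and was named after its value was seen.

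Of the 5 genes for enzymes that add sugars to the EGF repeats of Notch, 4 passed. Pofut1, which adds O-fucose, was highest at 1.35 and Rfng, a Fringe enzyme that extends it, was lowest at −2.05 (−2.77 to −1.42). Poglut1, which adds O-glucose, had the most RNA at 20.4 and 20.3 RPKM. Mfng, another Fringe enzyme, had no count in any library.

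The genes for ubiquitination and endocytosis of the ligands had the lowest median of the 8 lists, −2.13 over 5 passing genes of 7. None of the 5 lay above the median of all genes and 3 lay below −1, against 21.1% of all passing genes. That share, and the 20.7% above 1, also apply to the list counts below. Neurl1a, an E3 ligase, was lowest at −3.60, but from only 3.28 footprints (−5.88 to −2.05), so its place is not settled by these counts. Mib1, the main E3 ligase for the ligands, was highest at −0.27. Epn1, an endocytic adaptor, had the most RNA at 79.4 and 83.9 RPKM, and a value of −2.13.

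Among coactivators other than Maml1, all 7 passed and 3 lay below −1. Maml2, a relative of Maml1, was lowest at −2.31 (−2.96 to −1.73). Crebbp, a histone acetyltransferase, was highest at 0.53. Snw1, a nuclear cofactor of splicing and transcription, had the most RNA at 68.5 and 67.6 RPKM.

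For corepressors that act with RBPJ, 12 of 15 passed, 5 below −1 and 1 above 1. The histone deacetylase Hdac1 was highest at 2.31, with 12.4 and 12.1 RPKM of RNA and 77.2 RPKM of footprints. Hdac2, a close relative of Hdac1, had the most RNA of the list by the mean of the replicates, at 77.8 and 68.8 RPKM. Its log2 translational efficiency was 0.16, and in replicate 2 alone Ctbp1 of the same list had more RNA, at 69.7 RPKM.

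Of 11 genes in the turnover of the receptor, 10 passed and 5 lay below −1. Dtx3, of the Deltex family, was lowest at −3.42 (−4.43 to −2.58) from 10.9 footprints, and the kinase Aak1 highest at 0.24. The E3 ligase Nedd4 had the most RNA at 248 and 229 RPKM, and a value of −0.18. Dtx1, the founding Deltex gene in mammals, had no count in any library.

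Of the 10 genes of the Hes and Hey group other than Hes1, with the Notch-regulated genes Bhlhe40 and Nrarp counted in, 7 did not pass and had no footprint on the CDS. Hes5, a classic Notch target, and Hey2 had no count in any library, and Hey1 had 1 count in replicate 1. Hes1 was therefore the most abundant RNA of the Hes and Hey families in these cells, and Hes6 was the other that passed, at 27.4 and 28.5 RPKM of RNA and −1.34 (−1.88 to −0.84). Bhlhe40, a repressor related to the Hes proteins, had the most RNA of the list at 72.5 and 72.1 RPKM. Nrarp, a feedback inhibitor of Notch, was highest at 0.32 (−0.34 to 0.92).

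Of 12 epidermal genes linked to Notch, 11 were listed in the tables and 9 passed, with a median of 0.13. Sox9, a transcription factor of hair follicle cells, was highest at 1.34, and Krt10, a keratin of spinous cells, was lowest at −2.95 (−4.28 to −1.89) from 7 footprints. Trp63, the p63 gene of basal keratinocytes, had the most RNA by the mean of the replicates, at 141 and 125 RPKM. Its log2 translational efficiency was −0.18, and in replicate 2 alone Wnt4 had more RNA, at 139 RPKM.

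**Figure D5:**
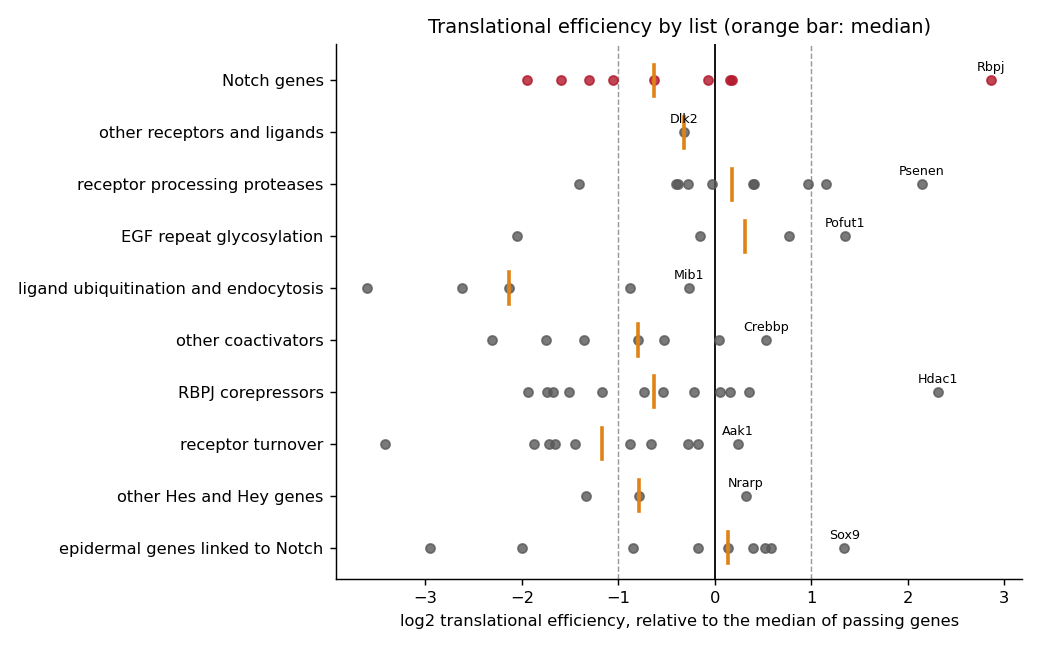
Log2 translational efficiency of the passing genes of each pathway list, with the Notch genes in red, the other genes in grey, orange bars at the list medians and the highest gene of each list named. The medians run from −2.13 for ligand ubiquitination and endocytosis to 0.31 for EGF repeat glycosylation.

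Genes with a pattern like that of a Notch gene were sought by Euclidean distance over log2 RPKM in the 3 libraries, among the 4829 passing genes that had 100 or more counts per library. Of the 9 genes, 6 met that minimum. The nearest to Notch1 were Fam114a2 (distance 0.11) and Usp3 (0.12), and the nearest to Notch2 were Gfm2 (0.094) and Lemd3 (0.18). The nearest to Jag1 were Dnaja3 (0.077) and Ube2r2 (0.090). For Jag2 they were farther off, with Akt1 at 0.26 and Use1 at 0.27. Dll1 was nearest to Man2b1 (0.054) and Dlgap4 (0.095), and Hes1 to Exoc4 (0.063) and Lonp1 (0.075).

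GENCODE M21 annotates transcripts on the opposite strand that share exon bases with 4 of the 9 genes. The shared length is 1068 nt between Notch1 and 0610009E02Rik, 488 nt between Notch3 and Gm17276, 867 nt between Dll1 and A930024N18Rik and 135 nt between Maml1 and Gm26542. Notch1 shares a further 414 nt with Gm13568, and Notch2 shares 541 nt with Gm42820 on its own strand. Whether strand was used in counting is not given in the sources used here, so reads from these transcripts cannot be told apart from reads of the Notch genes.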

How the data were processed

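After trimming with TrimGalore and removal of footprints from rRNA, tRNA and mitochondrial sequence with Bowtie2 2.4.1, the authors mapped reads to GRCm38 with STAR 2.6.1. Plastid gave values for the exons, the CDS and each UTR of a gene. The deposited values are estimated counts per gene, which need not be whole, without normalization, and RPKM values that the authors scaled to library totals above the sum of the gene counts. Of those totals, exon counts made up 1.75% in ribosome profiling and 21.1% and 21.3% in RNA-seq.

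RPKM was recomputed from counts, counted length and the exon total of each library with numpy 2.4.6, pandas 2.3.3 and scipy 1.17.1 in Python 3.11.15. A gene passed with RPKM above 1 in each RNA-seq library, a base mean above 25 (median-of-ratios factors on rounded counts) and footprints on a counted CDS. No pseudocount was used. The annotation release behind the counted regions is not given in the sources used here.

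The members and lists were chosen with earlier results of these data known. From each list the genes with the highest and lowest translational efficiency and the most RNA were named, with genes needed as background, and Hey, Hes and marker genes at or near 0. A gene that this rule takes is not reported here. As alternatives, each RNA-seq replicate was left out, and values were computed with RNA-seq over the CDS, a pseudocount of 1 RPKM, no division by length, a minimum of 100 counts, no filter, deposited RPKM, edgeR 4.0.16 and DESeq2 1.42.0 factors in R 4.3.3, and lower limits on the 5′UTR. The formula was also run on simulated counts with Poisson noise and known changes, set in genes with 100 or more counts. That run checks the formula only, not replicate spread or genes with fewer counts. Long-read libraries were not used here.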

Additional observations from a re-analysis of the deposited data

How the results depend on the processing

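Among 58 values of single genes under the 7 alternatives that keep both replicates, none past 2-fold changed sign, 30 moved by less than 1 SD over the RNA-seq replicates and 28 by more. Values with a replicate left out were not counted, since with n = 2 they nearly always fall within that SD. The median log2 translational efficiency of the Notch genes was −0.33 with RNA-seq over the CDS, −0.24 without division by length, −0.74 with a minimum of 100 counts per library (6 genes left), −0.36 with deposited RPKM, where Notch3 did not pass, and −0.79 where 80% or more of the annotated CDS was counted, an alternative chosen after seeing the data that leaves out Rbpj. Of 8 neighbouring pairs, 7 kept their order without division by length and 7 with a pseudocount of 1 RPKM, and 7 to 8 with a replicate left out. Without division by length, 1 gene lay below −1. With at least 100 counts, 0 of 6 genes lay above the median and 0 above 1, and with 80% of the CDS counted 0 of 8 lay above 1. With at least 100 counts, 11 of 27 pathway genes lay past 2-fold, 2 above and 9 below, since fewer genes passed. The median RNA level was 4.08 RPKM as deposited and 17.0 RPKM over the CDS, and the median footprint density 0.67 RPKM as deposited and 10.5 RPKM over exons. For the other changes the cause was not tested. With edgeR or DESeq2 factors the median replicate difference was 0.10, with CDS counts 0.19. With 30 nt and 10 footprints as limits, the 5′UTR had the higher footprint density in 1 of 4 genes, against 25.5% of 3072 genes. These genes too were selected by their 5′UTR footprints. No paired analysis was possible because the ribosome profiling library carries no replicate number. Depth limits Notch3, Rbpj and Maml1 most, with fewer than 100 footprints each.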
